A study of Mus musculus with 16 samples.

Results

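Potassium channel genes were described in mouse ES cells as all protein-coding genes on chromosomes 1 to 19 whose mm9 symbol starts with Kcn. The rule found 94 gene models with 92 symbols among 21418 protein-coding genes on these chromosomes, since Kcnb2 and Kcnh8 each have 2 coding models in the annotation. The 2 X-linked members, Kcnd1 and Kcne1l, were outside the rule. The study used ChIP-seq, which sequences DNA bound to histones with a given modification, to compare XX (female) and XY (male) ES cells for H3K27Ac, H3K27Me3 and H3K4Me1. All cells were C57BL/6 x CAST/EiJ hybrids at passage 7 to 10 with no treatment or engineered allele named, kept in serum and LIF (a cytokine that holds ES cells undifferentiated) on inactivated embryonic fibroblasts, which were depleted before the chromatin was taken. The labels name the XY lines BCM1 and BCM2 and the XX lines BCF3 and BCF4, with 1 library for each line and mark, and each sex has an IgG and an input control, which makes 16 libraries. The deposited data are 6 lists of enriched regions, each for 1 mark in 1 sex, so the 2 lines of a sex are joined in each list and no replicate spread could be computed. Each result below is therefore a description of 2 lists, with no test.

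Potassium channels let potassium ions leave or enter the cell along their gradient and so set the resting potential and end the action potential. Voltage-gated channels are built of 4 pore subunits (Kcna to Kcnd, Kcnh, Kcnq), some with silent subunits (Kcnf, Kcng, Kcns, Kcnv) that do not form a channel alone. Inward rectifiers (Kcnj) hold the resting potential, Kcnk channels carry leak currents through 2 pore domains per subunit, and Kcnma, Kcnn, Kcnt and Kcnu channels open to intracellular ions. Auxiliary subunits (Kcnab, Kcne, Kcnip, Kcnmb) set the speed and place of the pore subunits. Many of these genes are known for their use in neurons, heart and kidney rather than in ES cells. H3K27Me3 is laid down by a Polycomb complex and marks silenced genes, often in ES cells at CpG-rich promoters of genes of later lineages. H3K27Ac marks active promoters and enhancers, and H3K4Me1 marks enhancers and the flanks of promoters.

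The promoters of 8 members show the kinds of start site the results turn on. Each sequence runs 5′ to 3′ on the gene's own strand, from 250 bases before to 50 after the annotated 5′ end of the gene in mm9, with every CG dinucleotide in capitals. The promoters of Kcnh2 (chr5:23857373-23857672, minus strand), which encodes the pore of the rapid delayed rectifier of the heart, Kcnq1 (chr7:150292909-150293208, plus strand), the pore of the slow delayed rectifier, and Kcnk12 (chr17:88197285-88197584, minus strand), a 2-pore channel, hold 51, 30 and 20 CpG and lay in H3K27Me3 regions of both lists. Kcnj9 (chr1:174259345-174259644, minus strand), a G-protein-gated inward rectifier, holds 8 CpG and was under H3K27Me3 as well. Kcnk5 (chr14:21000955-21001254, minus strand), an acid-sensitive leak channel, holds 26 CpG and lay under H3K27Ac with no H3K27Me3. Kcnv1 (chr15:44946431-44946730, minus strand), a silent subunit, Kcnj15 (chr16:95478915-95479214, plus strand), an inward rectifier, and Kcna4 (chr2:107130546-107130845, plus strand), a fast-inactivating voltage-gated channel, hold 4, 2 and 18 CpG and had no region of any list.
Kcnh2: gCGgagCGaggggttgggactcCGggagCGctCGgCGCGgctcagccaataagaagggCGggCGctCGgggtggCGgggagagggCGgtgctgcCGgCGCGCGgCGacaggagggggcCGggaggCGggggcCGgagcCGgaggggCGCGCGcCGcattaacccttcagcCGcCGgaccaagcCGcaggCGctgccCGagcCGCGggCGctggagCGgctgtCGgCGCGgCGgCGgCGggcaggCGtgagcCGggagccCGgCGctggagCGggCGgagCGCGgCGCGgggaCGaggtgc
Kcnq1: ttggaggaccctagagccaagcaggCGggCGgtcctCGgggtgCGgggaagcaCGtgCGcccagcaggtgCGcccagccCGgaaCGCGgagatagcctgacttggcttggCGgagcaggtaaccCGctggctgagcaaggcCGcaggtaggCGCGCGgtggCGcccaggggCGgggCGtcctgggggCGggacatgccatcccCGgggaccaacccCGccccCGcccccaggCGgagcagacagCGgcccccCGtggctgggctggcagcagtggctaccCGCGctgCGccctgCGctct
Kcnk12: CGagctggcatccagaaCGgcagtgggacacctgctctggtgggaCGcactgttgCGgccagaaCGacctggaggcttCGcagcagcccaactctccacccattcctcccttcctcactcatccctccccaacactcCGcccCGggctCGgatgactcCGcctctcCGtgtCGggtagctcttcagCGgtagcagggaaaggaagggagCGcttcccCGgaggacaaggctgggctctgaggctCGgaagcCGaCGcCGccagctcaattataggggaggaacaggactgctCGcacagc
Kcnj9: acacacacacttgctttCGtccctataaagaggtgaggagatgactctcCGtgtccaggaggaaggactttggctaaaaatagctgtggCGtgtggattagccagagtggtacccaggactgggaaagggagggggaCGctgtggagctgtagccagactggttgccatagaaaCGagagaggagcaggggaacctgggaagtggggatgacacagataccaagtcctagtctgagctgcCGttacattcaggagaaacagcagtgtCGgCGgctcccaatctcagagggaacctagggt
Kcnk5: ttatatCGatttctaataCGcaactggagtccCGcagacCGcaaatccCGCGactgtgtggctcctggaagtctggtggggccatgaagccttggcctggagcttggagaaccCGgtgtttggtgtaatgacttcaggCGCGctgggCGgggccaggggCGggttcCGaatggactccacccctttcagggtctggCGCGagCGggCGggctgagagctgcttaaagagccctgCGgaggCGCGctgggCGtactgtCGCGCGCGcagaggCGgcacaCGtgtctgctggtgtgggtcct
Kcnv1: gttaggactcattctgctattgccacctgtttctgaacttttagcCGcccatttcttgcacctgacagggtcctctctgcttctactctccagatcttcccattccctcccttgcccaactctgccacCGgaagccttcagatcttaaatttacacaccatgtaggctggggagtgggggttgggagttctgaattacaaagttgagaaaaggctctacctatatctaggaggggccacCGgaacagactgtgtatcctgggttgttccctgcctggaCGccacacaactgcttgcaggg
Kcnj15: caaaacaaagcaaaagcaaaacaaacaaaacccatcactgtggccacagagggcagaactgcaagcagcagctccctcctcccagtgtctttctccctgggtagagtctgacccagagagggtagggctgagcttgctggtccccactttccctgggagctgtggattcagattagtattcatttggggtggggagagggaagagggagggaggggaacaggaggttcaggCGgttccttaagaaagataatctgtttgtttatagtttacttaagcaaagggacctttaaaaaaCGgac
Kcna4: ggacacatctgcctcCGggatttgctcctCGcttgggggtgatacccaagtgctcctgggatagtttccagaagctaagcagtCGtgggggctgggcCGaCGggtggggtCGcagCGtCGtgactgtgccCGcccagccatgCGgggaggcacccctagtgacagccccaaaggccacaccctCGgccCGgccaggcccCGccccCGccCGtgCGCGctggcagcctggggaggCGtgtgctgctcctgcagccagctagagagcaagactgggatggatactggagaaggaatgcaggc

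The autosomal H3K27Ac lists held 27785 (XX) and 25301 (XY) regions, the H3K27Me3 lists 18270 and 14977, and the H3K4Me1 lists 38822 and 34459. The XX list was the longer one for each mark, and it covered 110 Mb against 88.4 Mb for H3K27Me3. No list holds a read count, so the depth behind a region is unknown, and a mark absent from a list cannot be told apart from one just under its threshold. The lists also pool cells and alleles, so a mark in few cells and a weak mark in all cells cannot be told apart. The ES cell label was checked on marker genes, and 9 of 9 matched ES cell markers had H3K27Ac within 5 kb of a start in both lists. Of 10 fibroblast markers, 0 had H3K27Ac in the XX list and 2 in the XY list, Col1a1 and Twist1. That H3K27Ac at feeder cell markers lay in the XY list alone is given as a measured fact beside the XY-only results below, and its part in them was not tested. Of 6 neuron markers 3 had H3K27Ac in each list, and of 8 heart muscle markers 1.

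A larger share of the potassium channel genes than of all genes carried H3K27Me3, and a smaller share carried H3K27Ac. A mark was counted at a gene when at least 1 bp of a region fell on the gene body or on the 5 kb either side of any transcription start site (TSS). H3K27Me3 was carried by 71 of 94 members (75.5%) in the XX list and by 66 (70.2%) in the XY list, against 41.7% and 36.6% of all genes. H3K27Ac was carried by 34 members (36.2%) in each list, against 59.7% of all genes in XX and 59.2% in XY. H3K4Me1 was near the background, with 62 members (66.0%) in XX and 65 (69.1%) in XY against 68.7% and 67.6%. Members are longer than other genes, with a median of 28.9 kb against 15.5 kb, so a region can fall in the body more often.

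Counted only within 2 kb of a TSS, which takes most of the length out, the contrast was wider. H3K27Me3 lay there at 66 members (70.2%) in XX and 64 (68.1%) in XY, against 33.9% and 29.8% of all genes. H3K27Ac lay there at 15 members (16.0%) in XX and 18 (19.1%) in XY, against 51.4% and 51.4%. H3K4Me1 lay there at 59 (62.8%) and 61 (64.9%), against 62.2% and 61.4%. In XX, 19 of the 34 members counted for H3K27Ac had it only farther from a TSS or in the gene body.

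**Figure D1:**
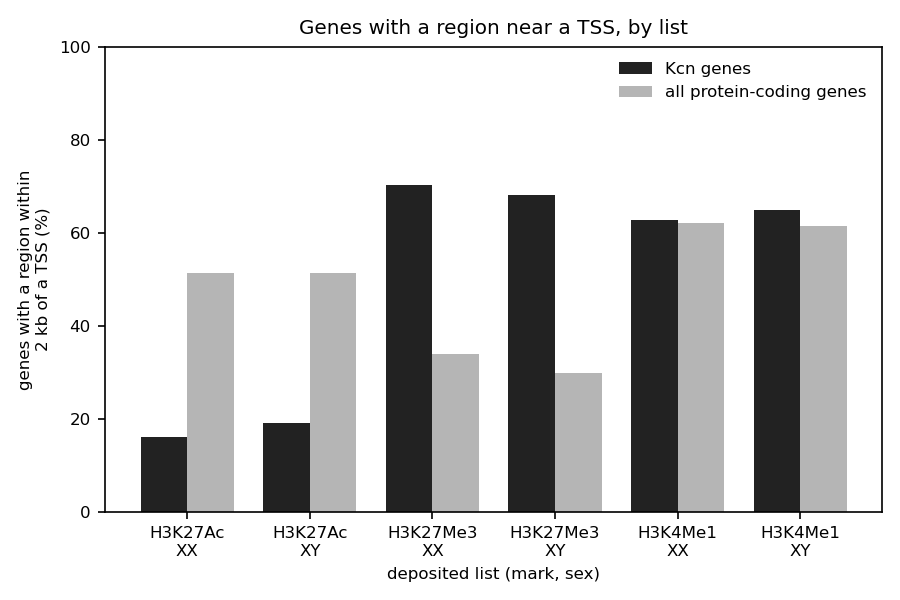
Bars give the percentage of genes with a region within 2 kb of any TSS in each of the 6 deposited lists, for the 94 Kcn genes (black) and all 21418 protein-coding genes (grey). The black bars are above the grey ones for H3K27Me3 (70.2% and 68.1% against 33.9% and 29.8%), below them for H3K27Ac and near them for H3K4Me1.

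Around the 5′ end of the gene, H3K27Me3 formed a broad block over the members. At the first base of the gene, H3K27Me3 covered 63.8% of members in XX and 60.6% in XY, against 23.9% and 20.1% of all genes. The highest share was 66.0%, at 0.200 kb downstream, in XX and 64.9%, at 0.600 kb downstream, in XY. At 20 kb on either side it was between 7.45% and 10.6% in both lists, close to the shares of all genes there. H3K27Ac had a lower peak than in all genes, with 13.8% of members covered at the first base in XX and 11.7% in XY against 46.4% and 47.0%. At 20 kb it covered between 4.26% and 7.45% of members. H3K4Me1 covered 50.0% of members at the first base in XX and 58.5% in XY, and in all genes 46.2% and 43.2%.

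**Figure D2:**
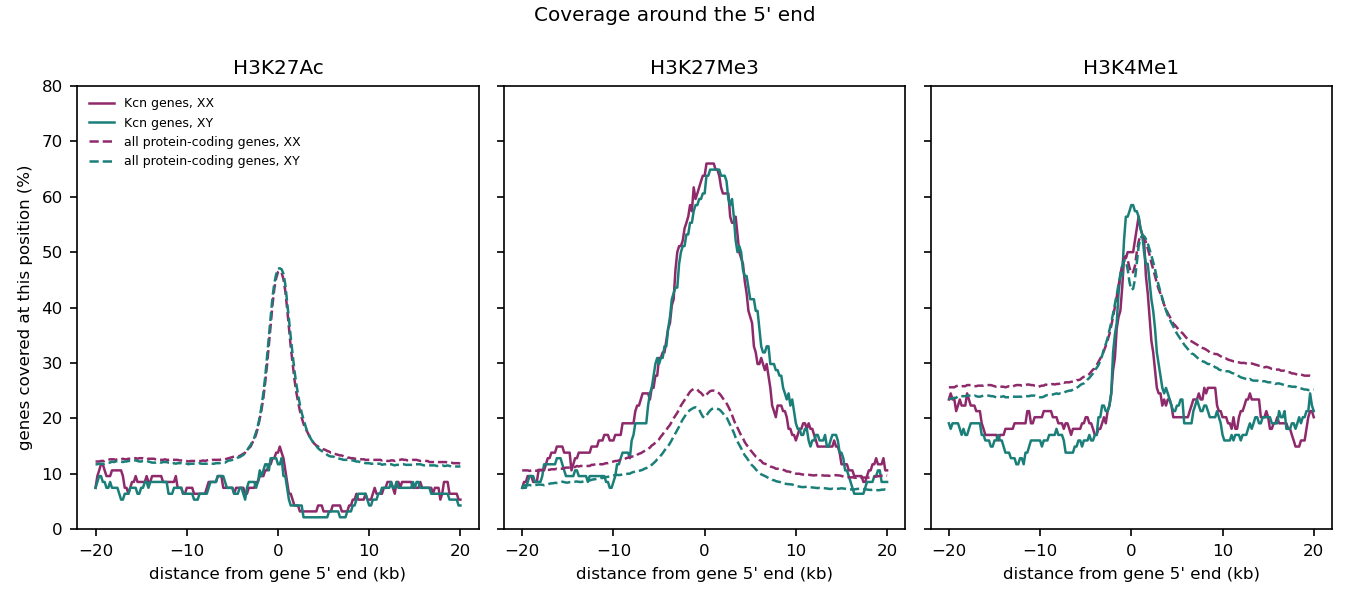
Each panel gives, for 1 mark, the percentage of genes (y axis) covered by a region at each distance in kb from the gene's 5′ end (x axis, positive downstream), for Kcn genes (solid) and all protein-coding genes (dashed) in the XX and XY lists. The solid H3K27Me3 curves reach 66.0% and 64.9% near the start and meet the dashed ones at 20 kb, while the solid H3K27Ac curves stay below 15%.

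How much of the start was covered varied among members from nothing to all of it. The window of 5 kb around any TSS was covered by H3K27Me3 over a median of 49.0% of its bases in XX and 52.5% in XY, and over a median of 0% in all genes in both lists. It was covered over its full length in both lists at Kcnc4, Kcnh3, Kcnj4, Kcnj9, Kcnk4 and Kcnk12. The window is longer at genes with TSSs farther apart, so ranks by kb given below depend on its length as well. No region of any list fell at 13 models (13.8%), against 20.4% of all genes. They were Kcna4, Kcna10, Kcnb2 model 2, Kcne1, Kcne4, both models of Kcnh8, Kcnj13, Kcnj15, Kcnk16, Kcnmb1, Kcnv1 and Kcnv2.

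**Figure D3:**
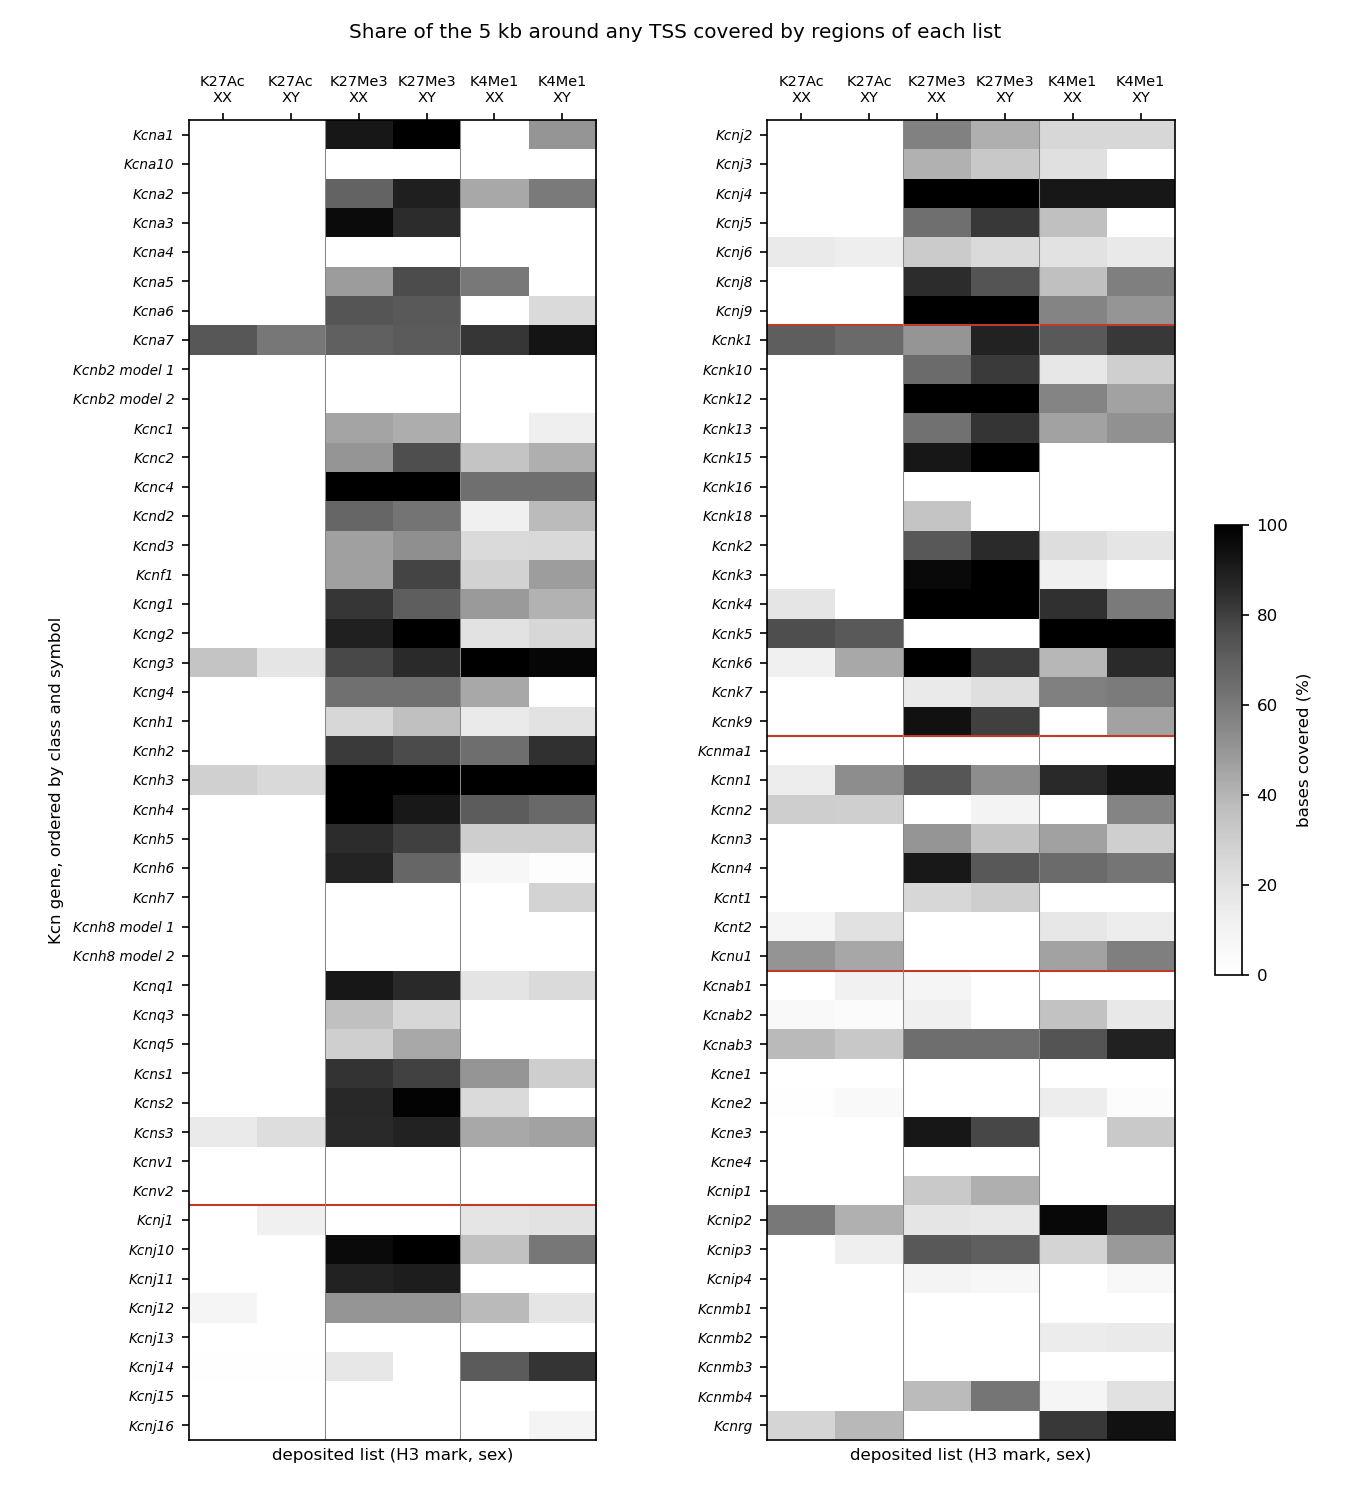
Rows are 90 of the 94 Kcn gene models in order of class and symbol (red lines part the classes) and columns the 6 lists, with the mark written without its H3. Shade gives the percentage of bases within 5 kb of any TSS covered by regions, from 0 (white) to 100 (black), and the middle pair of columns, H3K27Me3, is the darkest, with medians over all 94 models of 49.0% in XX and 52.5% in XY.

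Among the voltage-gated pore subunits, 33 of 41 models (80.5%) carried H3K27Me3 in XX and 32 (78.0%) in XY, and 12 and 11 carried H3K27Ac. In the Kcna subfamily, 6 of 8 genes carried H3K27Me3 in both lists, the exceptions being Kcna4 and Kcna10. Kcna1, a presynaptic and axonal channel, had 9.18 kb of its start window under H3K27Me3 in XX and 10.0 kb in XY. Kcna3, the channel of T lymphocytes, had 9.60 and 8.52 kb, and neither gene had H3K27Ac. Kcna7 was the Kcna gene with H3K27Ac, over 7.27 kb in XX and 6.07 kb in XY, in a region of 18.4 or 16.2 kb that also held the TSS of Snrnp70, a splicing factor gene. Kcna7 also had 6.93 and 7.13 kb of H3K27Me3.

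In Kcnc, the channels of fast-spiking neurons, all 4 genes carried H3K27Me3 in both lists. Kcnc4 was covered over all 10.0 kb in each, and Kcnc1 over 9.60 kb in XX and 9.0 kb in XY. Kcnc2 had 5.0 kb in XX and 7.60 kb in XY. In Kcnd, the transient outward channels, both autosomal genes carried H3K27Me3, Kcnd2 over 6.70 and 6.20 kb and Kcnd3 over 12.4 and 13.8 kb. In Kcnb, the delayed rectifiers, the first Kcnb2 model had a single region of 2.0 kb in its body in XX and none in XY.

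Kcnh showed either wide H3K27Me3 blocks or none. Kcnh1 to Kcnh6 carried the mark in both lists, and Kcnh7 and both Kcnh8 models in neither. Kcnh2 had the most H3K27Me3 within 5 kb of its TSSs of all 94 members, 22.2 kb in XX and 21.0 kb in XY. The block was in 2 pieces, 12.4 and 12.4 kb in XX and 14.2 and 11.0 kb in XY, the first of which lay over the gene's 5′ end printed above and the other over starts downstream. Between the pieces of XX, 2 H3K27Ac regions of 2.80 kb each lay in the XX list alone, 5.82 and 6.39 kb from the nearest TSS. Kcnh3 was fully covered by H3K27Me3 and H3K4Me1 in both lists, and H3K27Ac lay on 2.91 kb of the same window in XX and 2.51 kb in XY.

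All 5 Kcnq genes carried H3K27Me3 in both lists. Kcnq3, a subunit of the M channel of neurons, had it over 3.60 kb of the start window in XX and 2.60 kb in XY, and Kcnq5 over 6.0 and 8.94 kb. Kcnq1 lies in an imprinted domain and held the longest H3K27Me3 stretch, 198 kb (61.0% of 325 kb) in XX and 168 kb (51.6%) in XY. In XX it came as 13 regions, of which 2 measured 79.8 and 115 kb, and in XY as 15 regions of at most 55.6 kb. The 115 kb region of XX ran beyond the 3′ end of Kcnq1 over the TSSs of Cdkn1c, Phlda2 and Slc22a18, and the 55.6 kb region of XY over that of Cdkn1c alone. Both lists held the same 2 H3K27Ac sites in the Kcnq1 body, of 10.2 kb and of 3.60 kb in XX or 3.80 kb in XY. The second of these ended less than 1 kb before an H3K27Me3 block of each list began.

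**Figure D4:**
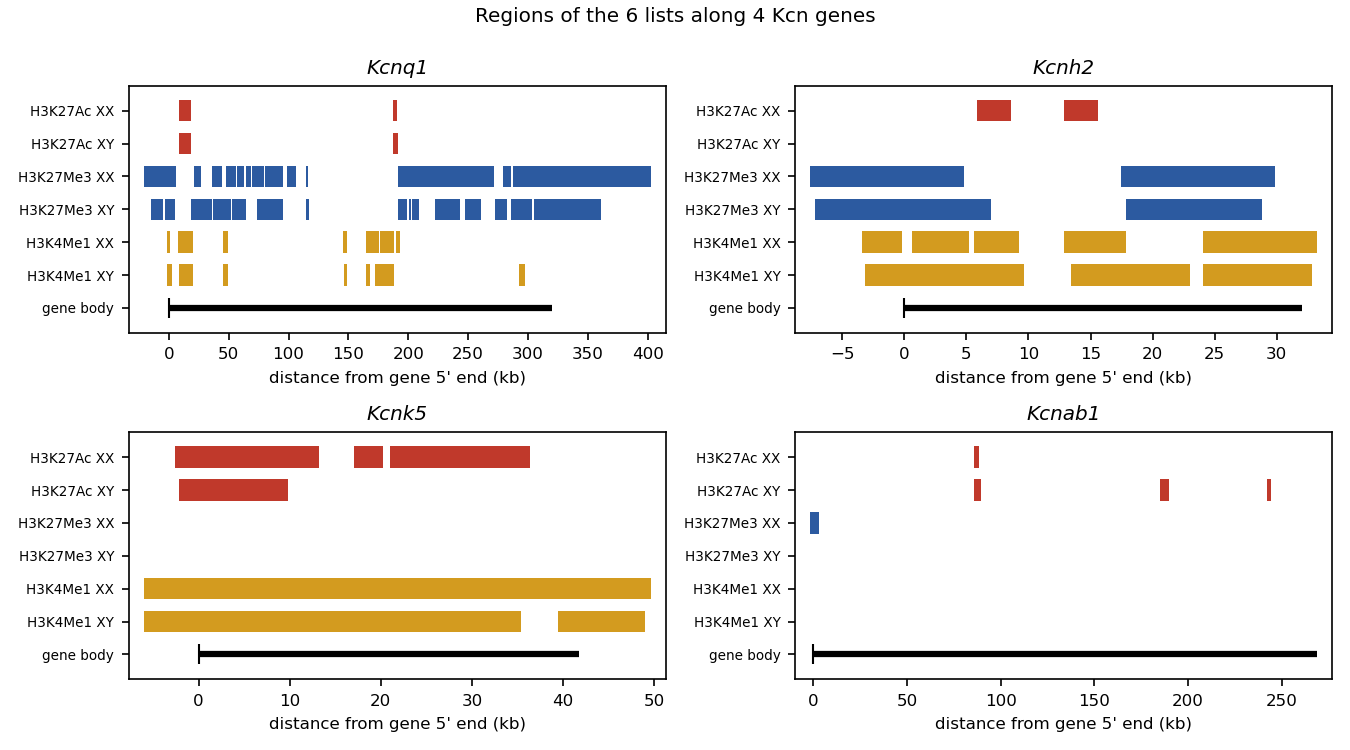
Blocks show the regions of each list along Kcnq1, Kcnh2, Kcnk5 and Kcnab1, with the gene body as a black line, the 5′ end at 0 and the x axis in kb downstream, each gene on its own scale. Long H3K27Me3 blocks cover Kcnq1 (198 kb in XX, 168 kb in XY), the H3K27Ac blocks of Kcnh2 appear in XX alone, Kcnk5 has H3K27Ac without H3K27Me3, and Kcnab1 has a start block of H3K27Me3 in XX alone.

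The silent subunits split by subfamily. Kcnf1, all 4 Kcng and all 3 Kcns genes carried H3K27Me3 in both lists, and neither Kcnv gene carried any mark. Kcng1 had the third widest H3K27Me3 cover of its start windows, 17.0 kb in XX and 14.4 kb in XY. Kcnf1 differed more between the lists, with 5.0 kb in XX and 8.41 kb in XY. Kcng3 and Kcns3 carried all 3 marks within 2 kb of a TSS in both lists.

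Of the 15 inward rectifiers, 11 carried H3K27Me3 in XX and 10 in XY, and 3 carried H3K27Ac in each list. The G-protein-gated Kcnj9 and the glial Kcnj10 start in opposite directions 11.9 kb apart and shared 1 H3K27Me3 region, of 21.6 kb in XX and 35.2 kb in XY, so their calls are not independent. Kcnj4, a strong rectifier, was covered over 10.0 kb in both lists, and Kcnj11, the pore of the ATP-sensitive channel, over 8.81 and 9.0 kb. Kcnj8, the other ATP-sensitive pore, had 8.52 kb in XX and 7.40 kb in XY. Kcnj1, Kcnj13, Kcnj15 and Kcnj16 carried no H3K27Me3 in either list. Kcnj6 was the inward rectifier with each of the 3 marks near a TSS in both lists, with 4.80 kb of H3K27Ac in XX and 4.0 kb in XY. The TSS was not the same for all marks. Near the starts, H3K27Me3 lay at the gene's 5′ end, and H3K27Ac and H3K4Me1 lay at another TSS and shared no bases with it.

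Of the 14 Kcnk genes, 12 carried H3K27Me3 in XX and 11 in XY, with medians of 69.1% and 82.3% of the start window, and 5 carried H3K27Ac in each list. Kcnk3 and Kcnk9, acid-sensitive channels, had 9.66 and 9.40 kb in XX and 10.0 and 8.0 kb in XY. Kcnk2 and Kcnk10, which respond to stretch, had 7.80 and 9.0 kb in XX and 9.23 and 11.2 kb in XY. Kcnk5 had the opposite pattern. It carried no H3K27Me3, its start lay under H3K27Ac over 7.60 kb in XX and 7.20 kb in XY, and H3K4Me1 covered 100% of its 46.7 kb stretch in XX and 91.4% in XY. Over the whole stretch, H3K27Ac covered 34.4 kb (73.6%) in XX and 12.0 kb (25.7%) in XY, since 2 XX regions of 15.4 and 3.20 kb in the body had no counterpart in XY. Kcnk16, whose gene ends 81.0 kb from Kcnk5, had no region.

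Of the 8 Kcnma, Kcnn, Kcnt and Kcnu genes, 6 (75.0%) carried H3K27Ac in each list, against 59.7% and 59.2% of all genes. H3K27Me3 was carried by 5 (62.5%) in XX and 6 (75.0%) in XY, against 41.7% and 36.6%. These genes have a median length of 118 kb, so a region can fall in the body more often. Within 2 kb of a TSS, H3K27Ac lay at 3 (37.5%) in XX and 4 (50.0%) in XY, against 51.4% of all genes. Kcnu1, a channel of sperm, had 10.1 kb of H3K27Ac in XX and 8.90 kb in XY with no H3K27Me3, and its first region also held the TSS of Ash2l, a widely used histone methylation gene. Kcnn1, a small-conductance channel, had 1.40 kb of H3K27Ac in XX and 5.31 kb in XY, where a region of 4.20 kb lay over its TSS. The widest H3K27Ac regions of Kcnn1 held the starts of Ccdc124 or Arrdc2. Kcnn4, the intermediate-conductance channel, had 9.32 and 7.37 kb of H3K27Me3 and no H3K27Ac. Kcnt1, a sodium-activated channel, had the fifth widest H3K27Me3 cover in kb, with 12.4 kb in XX and 14.2 kb in XY. This was 26.1% and 29.9% of the window around its 12 TSSs, below the member medians of 49.0% and 52.5%. Kcnma1, the large-conductance channel, had 1 H3K27Me3 region in each list, both in the body, and they did not overlap.

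Of the 16 auxiliary subunits, 10 (62.5%) carried H3K27Me3 in XX and 7 (43.8%) in XY, and 8 and 9 carried H3K27Ac. Within 2 kb of a TSS, H3K27Ac lay at 3 (18.8%) in XX and 6 (37.5%) in XY, against 51.4% of all genes. Of the 78 pore-forming subunits the H3K27Me3 shares were 78.2% and 75.6%, and the difference between these groups was not tested. All 4 Kcnip genes, partners of the Kcnd channels, carried H3K27Me3 in both lists. Kcnip2 had the most H3K27Ac and H3K4Me1 near its starts of all members, 16.0 and 25.8 kb in XX and 11.0 and 20.6 kb in XY. Its H3K27Me3 was shorter, 4.80 kb in XX and 4.40 kb in XY. Kcnip3, which also acts as a calcium sensor, had the fourth widest H3K27Me3 cover, 15.0 and 14.4 kb. Of 4 Kcne genes, 1 carried H3K27Me3, Kcne3, over 9.20 and 7.79 kb. The H3K27Ac at Kcne2 was a region at the start of Fam165b that covered 0.0610 kb of the Kcne2 window in XX and 0.661 kb in XY. Kcnrg, which limits channel assembly, had H3K27Ac over 2.68 and 3.88 kb, in a region that held the TSS of Trim13.

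By subfamily, H3K27Me3 lay at all members of Kcnc, Kcnd and Kcnq in both lists, and at 66.7% to 85.7% of Kcna, Kcnh, Kcnj and Kcnk. It lay at 3 of 4 Kcnn genes in XX and all 4 in XY, and at 2 of 3 Kcnb models in XX and 1 in XY. H3K27Ac lay in each list at 1 of 8 Kcna, 2 of 4 Kcnc, 1 of 2 Kcnd and 3 of 9 Kcnh genes. In each list it also lay at 3 of 15 Kcnj, 5 of 14 Kcnk, 3 of 4 Kcnn and 2 of 5 Kcnq genes. Of 3 Kcnb models, 1 had it in XX and 0 in XY. The shares of all genes were 59.7% and 59.2%. Median gene length ran from 6.64 kb in Kcna to 368 kb in Kcnd. Within 2 kb of a TSS, H3K27Ac lay at no Kcnb, Kcnd, Kcnh or Kcnq gene of either list. It lay there in each list at 1 Kcna, 2 Kcnj and 3 Kcnk genes, at 1 Kcnc gene in XX alone, and at 1 and 2 Kcnn genes. H3K4Me1 lay at 3 Kcna genes in XX and 4 in XY, at 6 and 7 Kcnh, 11 and 10 Kcnj, 10 and 11 Kcnk, 3 and 4 Kcnc, 4 and 3 Kcnq, and in each list at 1 Kcnb, both Kcnd and all 4 Kcnn genes. The net count of each of the 9 subfamilies differed between the lists by at most 1 gene in any mark. The genes behind it differed more in places, as 3 Kcna genes (1 in XX alone, 2 in XY alone) and 3 Kcnj genes (2 and 1) had H3K4Me1 in 1 list alone. With 2 to 15 genes each and 1 list per sex, differences between subfamilies were not tested.

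Presence and absence of a mark were mostly the same in the 2 lists. The full set of marks was equal in XX and XY at 66 of 94 members (70.2%), against 76.7% of all genes. H3K27Me3 was in the XX list alone at 6 members (6.38%) and in the XY list alone at 1 (1.06%), against 8.97% and 3.90% of all genes. H3K27Ac was in 1 list alone at 4 members (4.26%) each way, against 3.14% for XX and 2.59% for XY. H3K4Me1 was in XX alone at 5 (5.32%, against 4.19%) and in XY alone at 8 (8.51%, against 3.02%). The H3K27Me3 shares were below the background and the others above it, and only H3K4Me1 in XY alone was more than 2 times its background. That count was 3 when regions narrower than the list median were left out. Of the H3K27Me3 regions at members, 22 of 132 (16.7%) in XX and 13 of 132 (9.85%) in XY met no region of the other list, against 33.7% and 18.0% of those at all genes. For the other marks the shares at members were above those at all genes, with 14 of 55 H3K27Ac regions in XX and 10 of 50 in XY against 16.4% and 10.0%. For H3K4Me1 they were 29 of 136 and 19 of 126 (21.3% and 15.1%), against 5810 of 29013 regions in XX and 11.1% in XY.

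The 6 genes with H3K27Me3 in XX alone were 3 auxiliary and 3 pore subunits. Kcnab2, a beta subunit of Kcna channels, had 7.60 kb in XX over a TSS and none in XY. Kcnab1, a further beta subunit, had 4.60 kb over the gene's 5′ end in XX and none in XY, and in XY alone 2 H3K27Ac regions of 4.40 and 2.20 kb over other starts. The marks of Kcnab1 thus lay at different TSSs in the 2 lists. Kcnmb3 had 4.60 kb in its body, Kcnk18 had 3.40 kb over its TSS, Kcnj14 had 4.96 kb in the gene stretch, and the first Kcnb2 model had 2.0 kb. Kcnn2, a small-conductance channel of heart and brain, was the gene with H3K27Me3 in XY alone, 2.0 kb over a TSS that lay under H3K27Ac in both lists. Kcnn2 also had the largest excess of H3K4Me1 in XY within 5 kb of a TSS, 11.2 kb against 0 kb.

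Near the TSSs, each list covered more H3K27Me3 than the other at an equal number of members. Of 69 members with any H3K27Me3 within 5 kb of a TSS in either list, XX covered more at 29, XY at 29, and 11 were equal. In all genes, XX covered more at 5436, XY at 2942, and 732 were equal. The largest excess in XX after the genes above was at Kcnh6 (13.7 against 10.5 kb) and Kcnn3 (10.0 against 6.89 kb). In XY it was at Kcnmb4 (12.6 against 7.80 kb), Kcnk1 (8.80 against 5.0 kb), Kcnf1, Kcnq5 (8.94 against 6.0 kb) and Kcna5 (7.63 against 4.80 kb). The genes of each group include wide and narrow blocks, and the sign of the difference varied within the subfamilies Kcna, Kcnh and Kcnk.

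H3K27Ac within 5 kb of a TSS covered more in XX at 14 members and more in XY at 9, with 1 equal. In all genes, XX covered more at 5420, XY at 5849, and 1077 were equal. Members with more in XX included Kcnip2, Kcnk4 and Kcnj12, and Kcng3 (3.40 against 1.80 kb). In XY the excess was at Kcnab1 (6.60 against 0 kb), Kcnn1, Kcnip3, the leak channel Kcnk6 (4.94 against 1.34 kb) and the sodium-activated channel Kcnt2 (4.12 against 1.60 kb). The leak channel Kcnk1 had 7.0 kb in XX and 6.60 kb in XY. H3K4Me1 covered more in XY at 37 members and in XX at 25, with 7 equal. In all genes, XY covered more H3K4Me1 at 6520, XX at 7015, and 1228 were equal. Among members, after Kcnip2, the most H3K4Me1 lay at Kcnh2 (17.6 kb in XX, 23.0 kb in XY), Kcnab2 (17.2 and 8.20 kb), Kcnab3 (10.4 and 12.5 kb) and Kcnu1 (9.20 and 11.6 kb). Kcnk6 (4.42 and 9.62 kb) and Kcnip3 (5.60 and 10.2 kb) were also higher in XY, and Kcng4 (4.55 and 0 kb) and Kcnj12 (7.71 and 3.60 kb) in XX.

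H3K27Ac in 1 list alone was found at 8 members, and at Kcnh2, Kcnk12 and Kcnh6 it lay outside the 5 kb windows of the TSSs. In XX alone, Kcnh2 had 5.60 kb, the mechanosensitive channel Kcnk4 1.80 kb and the strong rectifier Kcnj12 1.60 kb. At Kcnk4 and Kcnj12 the region lay over a TSS inside an H3K27Me3 region of the same list. In XY alone, Kcnk12 had 5.62 kb in its body, Kcnip3 2.60 kb over a TSS, the kidney channel Kcnj1 2.40 kb at 1.80 kb from a TSS, and Kcnh6 1.46 kb. Kcnh2, Kcnk4 and Kcnj12 all carried H3K27Me3 and H3K4Me1 in both lists.

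H3K4Me1 in XX alone was found at Kcna5 (6.03 kb), Kcnj5 (3.60 kb), Kcnj3 (2.40 kb), Kcns2 (2.40 kb) and Kcnq5 (2.0 kb), all of which carried H3K27Me3 in both lists. Kcnj3 and Kcnj5 encode the 2 subunits of the acetylcholine-gated channel of the heart. H3K4Me1 in XY alone was found at Kcna1 (5.0 kb), Kcnk9 (4.60 kb), Kcna6 (3.40 kb), Kcne3 (3.20 kb), Kcnc1, Kcnh7, Kcnip4 and Kcnj16 (2.80 kb each). Of these 8, Kcnh7 and Kcnj16 had no other mark.

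Combinations of marks were counted next. H3K4Me1 and H3K27Me3 without H3K27Ac were found at 31 members (33.0%) in XX and 32 (34.0%) in XY, against 10.8% and 9.65% of all genes. All 3 marks anywhere on the gene stretch were found at 23 members (24.5%) in XX and 22 (23.4%) in XY, against 25.0% and 21.1% of all genes, and H3K27Ac with H3K27Me3 alone at 4 and 2. Of the 68 members with H3K27Me3 within 5 kb of a TSS in XX and 65 in XY, 50 in each list had H3K4Me1 on some of the same bases (73.5% and 76.9%), and for all such genes the shares were 75.0% and 71.9%. H3K27Ac shared bases with H3K27Me3 at 12 and 10 of them (17.6% and 15.4%), against 38.9% and 37.7%. Counted in bases, H3K4Me1 lay on 41.5% of the members' H3K27Me3 bases in XX and 47.0% in XY, against 53.0% and 53.3% in all genes, and H3K27Ac on 4.91% and 4.47%, against 13.9% and 14.3%. All 3 marks lay within 2 kb of a TSS in both lists at 7 members (7.45%, against 8.85%), Kcna7, Kcnab3, Kcng3, Kcnip2, Kcnj6, Kcnk1 and Kcns3. Each mark was counted at any TSS of the gene, and at Kcnj6 H3K27Me3 lay at a different TSS from the other marks. The H3K27Ac regions of Kcna7 and Kcnab3 in this group also held the start of a neighbouring gene.

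Of the 18 channel genes of cardiac repolarization, the tissue named in the study's title, H3K27Me3 lay at 14 (77.8%) in XX and 15 (83.3%) in XY, against 41.7% and 36.6% of all genes, and H3K27Ac at 9 (50.0%) and 6 (33.3%), against 59.7% and 59.2%. Within 2 kb of a TSS, H3K27Ac lay at 3 of them (16.7%) in XX and 2 (11.1%) in XY, against 51.4% of all genes. Kcnh2 and Kcnj12, given above, were among the genes with H3K27Ac in XX alone. Kcnj2, the main pore of the inward rectifier current of the ventricle, had 5.72 kb of H3K27Me3 in XX and 4.20 kb in XY. Kcna5, which carries an ultrarapid delayed rectifier current, had 4.80 and 7.63 kb. Kcnj3 and Kcnj5 had 4.60 and 6.40 kb in XX and 3.60 and 8.20 kb in XY. Kcne1, the partner of Kcnq1, and Kcna4 had no region, and Kcne2 had no H3K27Me3. This list was described by counts alone, and 9 against 6 of 18 in single lists was not tested.

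Members with H3K27Me3 had more CpG in their promoters than members without it, and so had all genes. In the 300-base promoter window printed above for 8 members, all 94 members had a median of 13 CpG and all genes 12. This window lies at the gene's 5′ end, while a mark was counted within 2 kb of any TSS. At genes with several starts, the mark and the window can therefore lie at different starts. The 63 members with H3K27Me3 within 2 kb of a TSS in both lists had a median of 17 CpG, and the 27 with none in either list had 4. In all genes these medians were 17 and 8. The 50 members with H3K27Me3 and no H3K27Ac there in both lists had a median of 17 CpG, against 14 in all genes. The 16 members with no region of any list there had 3, against 2. With 0 to 4 CpG, 4 of 19 members (21.1%) had H3K27Me3 in each list, against 16.5% in XX and 13.9% in XY of all genes in that class. With 20 to 70 CpG, 28 of 30 members (93.3%) had it in XX and 27 (90.0%) in XY, against 42.3% and 38.4%. The CpG-rich members without it in both lists were Kcnk5 and Kcnh7, and Kcnab2 had it in XX alone, at a TSS away from the window.

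In the same CpG-rich class, H3K27Ac lay at 5 of 30 members (16.7%) in each list and at 80.3% in XX and 80.5% in XY of all genes. The CpG-rich members with it in both lists were Kcnab2, Kcng3, Kcnj6 and Kcnk5, and at Kcnj6 it lay at a TSS away from the window. With 0 to 4 CpG, H3K27Ac lay at 2 members (10.5%) in XX and 4 (21.1%) in XY, against 15.1% and 14.6%, so that members and other genes differed little there. Kcna4 (18 CpG, no mark), printed above, differed from most members with 10 to 19 CpG, of which 22 of 26 (84.6%) had H3K27Me3 in each list. Kcnj9 (8 CpG, fully under H3K27Me3) did not differ from most members with 5 to 9 CpG. Of those, 12 of 19 (63.2%) had H3K27Me3 in XX and 11 (57.9%) in XY.

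**Figure D5:**
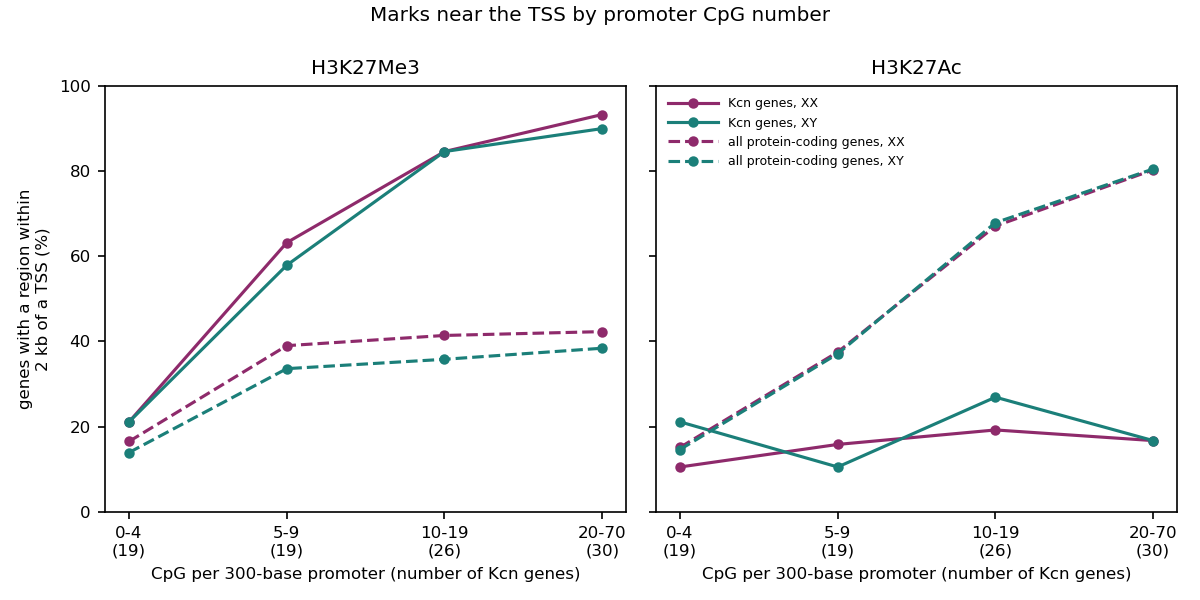
The y axis gives the percentage of genes with H3K27Me3 (left) or H3K27Ac (right) within 2 kb of a TSS, for classes of CpG number in the 300-base promoter window (x axis, with the number of Kcn genes in brackets), for Kcn genes (solid) and all protein-coding genes (dashed). The solid H3K27Me3 lines climb from 21.1% to 93.3% in XX and 90.0% in XY, and the solid H3K27Ac lines stay under 30% where the dashed ones reach 80.3% and 80.5%.

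The 3 motifs below were searched for on both strands of the same windows, and each promoter was scored for the presence or absence of each motif. TATAAA, the core of the TATA box, was in 5 members (5.32%) against 13.5% of all promoters, namely Kcnb2 model 2, Kcnj1, Kcnj9, Kcnj13 and Kcnj15. GGGCGG, the GC box, which itself holds a CG, was in 47 members (50.0%) against 43.7%, and in 32 of the 50 with H3K27Me3 and no H3K27Ac (64.0%, against 51.1% of all genes with these marks). CAGCACC, a part of the element bound by the neuronal repressor REST, was in 8 members (8.51%) against 6.70%, Kcng4, Kcnh2, Kcnh6, Kcnj2, Kcnj11, Kcnk3, Kcnk7 and Kcns2. All but Kcnk7, with 1.57 kb of H3K27Me3 in XX and 2.17 kb in XY, had at least 4.20 kb of H3K27Me3 near their starts in each list. A match is a string of letters and not a measured binding site.

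The same counts were made for 2 other ion channel families. H3K27Me3 lay at 24 of 25 calcium channel genes (96.0%) in XX and 23 (92.0%) in XY, and at 9 and 8 of 15 sodium channel genes (60.0% and 53.3%), against 41.7% and 36.6% of all genes. Within 2 kb of a TSS the sodium channel shares were 46.7% and 33.3%, against 33.9% and 29.8% of all genes. H3K27Ac lay at 16 and 13 calcium channel genes (64.0% and 52.0%) and at 2 sodium channel genes (13.3%) in each list. In all genes the shares were 59.7% and 59.2%. Within 2 kb of a TSS, H3K27Ac lay at 32.0% of calcium channel genes in each list, against 51.4% of all genes. For sodium channel genes these shares were 0% in XX and 6.67% in XY. Of 13 partners of potassium channels outside the Kcn symbols, 12 carried H3K27Me3 in XX and 11 in XY. Among them the pacemaker channel Hcn4 had 10.0 kb in both lists, and Abcc8, the partner of Kcnj11, had 5.40 kb in XX and 8.80 kb in XY. Abcc9, the partner of Kcnj8, carried it in XX alone, as did Scn1a, Cacng1 and Cacng5, and Cacng6 in XY alone. Calcium and sodium channel genes are longer, with medians of 111 and 85.9 kb, and the differences between families were not tested.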

How the data were processed

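ChIP-seq libraries of H3K27Ac, H3K27Me3 and H3K4Me1 from XX and XY ES cells were aligned by the authors to mm9 with Bowtie2, and Bedtools is named in the methods. Bowtie and deepTools stand in the submitters' processing notes, with no version. The deposited files give, per sex and mark, the chromosome, start and end of enriched regions on a 200 bp grid, as positions with no count, score or signal. Not given in the sources used here are the region caller, its threshold, the use of IgG and input, and how lines were joined. Depth is therefore unknown, and no interval or test was computed.

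Genes, TSSs and promoter sequences came from GENCODE M1 on NCBIM37, the assembly of mm9. Starts were shifted to 1-based positions. Bases covered were counted within 5 kb of any TSS. Overlap counts were tested on simulated data (200 of 200 draws equal) and checked against Bedtools 2.31.1 (6 of 6 lists equal), with Python 3.11.15. Named genes were those with a mark in 1 list only, the 5 with the widest cover and the 5 with the largest difference each way per mark, those with no or all marks, and cardiac channels. In the neuron and ES cell lists, 2 and 1 markers had no matched autosomal coding symbol. The members and gene lists were chosen with earlier results of these data known. Some members counted in the totals are not reported here by name.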

Additional observations from a re-analysis of the deposited data

How the results depend on the processing

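Of 112 counts under 8 alternatives to the 14 counts of members, 89 stayed within 1.5 times the reported value and 23 did not. The cause of each shift was not tested beyond the narrower windows or fewer regions that define the alternative. Members with H3K27Ac (34 in each list) numbered 21 in XX and 21 in XY within 5 kb of any TSS, 15 and 18 within 2 kb, 19 and 17 within 5 kb of the gene's 5′ end, and 16 and 18 with regions at least as wide as the list median. With these wide regions, H3K27Ac was in XX alone at 0 members and in XY alone at 2, and H3K27Me3 in XY alone at 0. H3K4Me1 was at 38 members (40.4%) in XX and 35 (37.2%) in XY, and at 3 in XY alone. These shares were below the 54.0% and 52.1% of all genes under this setting, unlike the main count, which was near the background. H3K4Me1 with H3K27Me3 but no H3K27Ac was at 16 in XY with the same wide regions. Within 5 kb of the 5′ end, H3K27Ac was in XY alone at 1, H3K27Me3 in XX alone at 3 and in XY alone at 2, and H3K4Me1 in XX alone at 8. H3K27Me3 in XX alone was at 3 within 2 kb. Without regions that hold a TSS of another gene, H3K27Me3 was in XY alone at 2 and H3K4Me1 in XX alone at 8. With lists of equal length by width, H3K4Me1 was in XX alone at 3. The counts of members with H3K27Me3 in XX (71) and XY (66) stayed within 1.5 times under every alternative. Counting 1 record per symbol was added after seeing the data. No paired analysis was possible because each list joins the lines of a sex. Regions that abut within 1 bp, 52 to 237 pairs per list, are counted as separate.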
